A study of Mus musculus with 21 samples.

Results

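The genes described here make, move and load the peptides that class I molecules of the major histocompatibility complex (MHC) show at the cell surface. They are the immunoproteasome subunits Psmb8, Psmb9 and Psmb10, the proteasome activator subunits Psme1 and Psme2, the peptide transporter genes Tap1 and Tap2, the loading factor Tapbp, the trimming peptidase Erap1 and the transcriptional regulator Nlrc5. They were chosen by symbol, with earlier results of these data known, so their counts against all genes are a description. All 10 were found among the 24623 gene symbols of the expression table, and all 10 were among the 14337 genes with enough signal to test. RNA was measured in pancreatic tumour cells of mouse, from a clone named 6694c2 and another named 6419c5. The cells grew under the skin of C57BL/6 mice with no treatment and were sorted from the tumours after 3 weeks. Each clone had its parental line, called WT here, and lines labelled EPHA2-KO, which the table letters KOA and KOB. EPHA2 is a cell surface kinase that binds ephrins. Each 6694c2 group had 4 libraries and each 6419c5 group had 3, which makes 21. All groups thus passed through a tumour in a host with its own immune cells, and no label tells the editing method, whether a KO line is 1 clone of cells, what mark the cells were sorted by or which libraries came from separate animals. A p-value therefore measures only the spread between these libraries, which may be technical.

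Class I molecules carry short peptides that are mostly cut from proteins inside the cell by the proteasome. Interferon, above all interferon gamma, leads cells to replace the constitutive catalytic subunits with the immunosubunits, to make more of the activator ring and transporter, and to raise Nlrc5, a nuclear protein that acts with RFX and NF-Y factors at class I promoters. In tumours this route decides which peptides T cells can see, and its loss is a known way to evade them.

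Members of the set lie together in the genome (positions on mm10 from the RefSeq gene table, build GRCm38.p6). On chromosome 17, inside the MHC, Psmb9 (chr17:34182030-34187330, minus strand), Tap1 (chr17:34187556-34197225, plus strand), Psmb8 (chr17:34198195-34201454, plus strand) and Tap2 (chr17:34204479-34216321, plus strand) follow one another with gaps of 225, 969 and 3024 bp. Tapbp (chr17:33919478-33929290, plus strand) lies 252739 bp before Psmb9. Psme1 (chr14:55578494-55581527, plus strand) and Psme2 (chr14:55587440-55591101, minus strand) are 5912 bp apart on chromosome 14. Psmb10 (chr8:105935728-105938392, minus strand) and Nlrc5 (chr8:94434335-94527272, plus strand) are both on chromosome 8, and Erap1 (chr13:74639573-74693205, plus strand) is on chromosome 13.

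Sequence around the start is shown for 5 members because it holds letters known from interferon-responsive and class I promoters. They come from RefSeq windows of 300 bases around gene starts (GRCm38.p6), which were at hand for 8 of the 10 members. Each is written 5′ to 3′ on the plus strand, which is the coding strand of all 5 genes. Capitals mark CCAAT in Tap1 and Tapbp (the letters of the Y box, ATTGG on the other strand), TTCNNNGAA in Psmb8 (the letters of a gamma-activated site) and TTTC, any 2 bases and TTTC in Erap1 and Psme1 (the core of an interferon-stimulated response element, GAAA, any 2 bases and GAAA, read on the other strand).
Tap1, chr17:34187306-34187555: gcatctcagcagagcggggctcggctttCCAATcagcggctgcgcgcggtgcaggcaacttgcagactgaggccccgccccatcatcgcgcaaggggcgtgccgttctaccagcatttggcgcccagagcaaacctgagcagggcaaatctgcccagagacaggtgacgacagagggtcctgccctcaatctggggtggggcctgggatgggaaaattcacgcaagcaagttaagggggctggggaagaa
Tapbp, chr17:33919228-33919477: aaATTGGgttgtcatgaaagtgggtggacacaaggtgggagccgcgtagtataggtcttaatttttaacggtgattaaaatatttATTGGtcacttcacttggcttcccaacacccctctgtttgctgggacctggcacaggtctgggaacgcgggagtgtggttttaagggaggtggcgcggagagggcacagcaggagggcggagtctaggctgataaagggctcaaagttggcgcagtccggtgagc
Psmb8, chr17:34198075-34198224: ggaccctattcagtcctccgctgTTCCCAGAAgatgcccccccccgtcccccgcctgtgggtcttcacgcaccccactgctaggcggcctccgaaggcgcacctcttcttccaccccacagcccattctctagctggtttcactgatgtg
Erap1, chr13:74639838-74639867: tccaccttcacTTTCACTTTCggtcccggg
Psme1, chr14:55578374-55578523: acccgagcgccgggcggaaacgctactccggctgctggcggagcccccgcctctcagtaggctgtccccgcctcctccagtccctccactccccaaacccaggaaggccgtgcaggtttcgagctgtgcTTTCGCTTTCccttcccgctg

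The Tap1 stretch also serves Psmb9, which is read from the other strand: the windows of both genes share 275 of their 300 bases. Both strands were searched in each whole window, and overlapping matches of different motifs were each counted. The core of the response element was present for 2 of 8 members, against 3.44% of the 32851 mouse windows. It begins 4 bases before the start in Erap1 and 9 bases after it in Psme1. The Erap1 window is set on a start inside the span of the gene given above, so only 30 bases of it are shown. TTCNNNGAA was present for 1 of 8, Psmb8, 97 bases before the start, against 8.3% of windows. CCAAT was present for 3 of 8 (Tap1, Psmb9 and Tapbp, which has 2 copies) against 37.4%, and a short form of the NF-kappaB site (GGG, any 5 bases and CC) for 4 of 8 (Psme1, Psme2, Psmb9 and Tap1) against 50.8%. Both shares are close to those of all windows. The matches of Tap1 and Psmb9 to these motifs are the same sites read from opposite strands, counted for each gene. A match of letters is not a measured site.

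Values are TPM, a share of all transcripts of a library that is already divided by transcript length, so levels of different genes can be compared. Sequencing depth cannot be read from TPM. The targeted gene was examined first. Epha2 in 6694c2 was at 239.9–252 TPM in the 4 WT libraries and 88.0–129.7 TPM in the 8 KO libraries, a difference of -1.21 ± 0.09 (SE) in log2(TPM + 1). In 6419c5 it was at 164–190.4 TPM in WT, 144–156 TPM in KOA and 169.7–221 TPM in KOB, a difference of -0.03 ± 0.10, so the RNA level checks the labels in 6694c2 and does not do so in 6419c5. Summed TPM of 6 epithelial markers (Krt7, Krt8, Krt18, Krt19, Epcam, Cdh1), the labelled tumour cell type, ran from 5647 to 16318 over all libraries and was higher in every KO library of 6419c5 (12258–16318) than in its WT libraries (5647–7562). Markers of blood cells were present: the sum of 8 leukocyte genes ran from 38.7 to 849 TPM, and that of 8 macrophage and monocyte genes from 56.5 to 4092 TPM. The library that stood apart for the members themselves was KOB library 2 of 6419c5, which is named where it decides a value.

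The catalytic immunosubunits rose in every line labelled EPHA2-KO. Psmb8 (LMP7, the chymotrypsin-like immunosubunit) in 6694c2 was at 8.87, 15.1, 7.81 and 16.5 TPM in WT, at 269, 224, 176 and 183 TPM in KOA, and at 317, 245, 267 and 270 TPM in KOB. The 6419c5 libraries were at 14.9, 28.6 and 29.5 TPM in WT, at 175, 224 and 123 TPM in KOA, and at 117, 521 and 288 TPM in KOB. Every KO library thus lay above every WT library of its clone, and the KOB libraries of 6419c5 spread more widely than any other group. The mean TPM of the KO libraries was 20.2 times that of WT in 6694c2 and 9.91 times in 6419c5. In log2(TPM + 1), a scale that understates changes of low genes, the KO effect (KOA and KOB averaged, minus WT) was 4.27 ± 0.30 (SE) in 6694c2 and 3.11 ± 0.35 in 6419c5, with adjusted p-values of 7.7e-09 and 1.37e-06 by limma with Benjamini-Hochberg adjustment over all tested genes. In bulk RNA of this kind, a change in the number of cells that make a transcript and a change in the RNA each cell makes cannot be told apart.

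Psmb9 (LMP2, whose product replaces the caspase-like subunit) followed the same pattern. In 6694c2 it ran from 6.64 to 10.3 TPM in WT, from 106 to 174 TPM in KOA and from 183 to 237 TPM in KOB. In 6419c5 it ran from 6.33 to 16.3 TPM in WT, from 72.3 to 134 TPM in KOA and from 85.4 to 393 TPM in KOB. The groups of a clone did not overlap between WT and KO. Its KO effect was 4.13 ± 0.30 in 6694c2 and 3.52 ± 0.34 in 6419c5 (adjusted p by limma 1.07e-08 and 3.18e-07), the 10th and 17th largest increases of the tested genes.

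Psmb10 (MECL-1, the trypsin-like immunosubunit) started from a higher level and rose less. It was at 41.2, 45.9, 43.9 and 49.6 TPM in WT of 6694c2, at 135.5, 104.5, 90.5 and 101 TPM in KOA and at 210.0, 174, 188 and 170.3 TPM in KOB. In 6419c5 it was at 88.7, 74.6 and 65.0 TPM in WT, at 177, 226 and 177 TPM in KOA and at 183, 404 and 256 TPM in KOB. No KO library reached down to a WT level in either clone. The KO effect was 1.62 ± 0.15 in 6694c2 and 1.57 ± 0.18 in 6419c5 (adjusted p by limma 2.66e-07 and 1.68e-06), with ratios of mean TPM of 3.25 and 3.12.

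The constitutive counterparts hardly moved beside them. Psmb5, Psmb6 and Psmb7 encode the subunits that Psmb8, Psmb9 and Psmb10 replace. Their KO effects were -0.06, 0.18 and -0.17 in 6694c2 and 0.24, -0.0031 and -0.43 in 6419c5, of which Psmb6 in 6694c2 and Psmb5 in 6419c5 rose and Psmb7 fell in both by the same limma test. In 6694c2 the mean of Psmb5 was 253 TPM for WT, 226 TPM for KOA and 260 TPM for KOB. The immunosubunit share of each pair is therefore the plainer measure. Psmb8 made up 4.58% ± 1.75 (SD, n = 4) of the summed Psmb8 and Psmb5 TPM in WT of 6694c2, 48.1% ± 5.37 in KOA and 51.2% ± 3.26 in KOB. In 6419c5 it made up 9.40% ± 3.39 (SD, n = 3) in WT, 40.3% ± 7.15 in KOA and 46.0% ± 17.4 in KOB. Transcripts of the immunosubunit went from a small minority to about the level of the constitutive one.

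In its pair with Psmb6, Psmb9 had a 6694c2 share of 4.11% (WT), 37.5% (KOA) and 46.7% (KOB) and a 6419c5 share of 3.70%, 24.1% and 38.8%. In its pair with Psmb7, Psmb10 had a 6694c2 share of 19.9%, 39.6% and 53.8% and a 6419c5 share of 18.6%, 44.4% and 51.4%. On the log2 scale of the ratio itself, KO exceeded WT by 4.45 (Psmb8 to Psmb5), 4.10 (Psmb9 to Psmb6) and 1.82 (Psmb10 to Psmb7) in 6694c2, and by 2.93, 3.64 and 2.02 in 6419c5. In all 6 comparisons every KO library lay above every WT library. The exact two-sided permutation test gave p = 0.00202 for each ratio in 6694c2 and p = 0.0119 for each in 6419c5, the smallest that 4 against 8 and 3 against 6 libraries allow (adjusted over the 6 tests, 0.00404 and 0.0119).

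**Figure D1:**
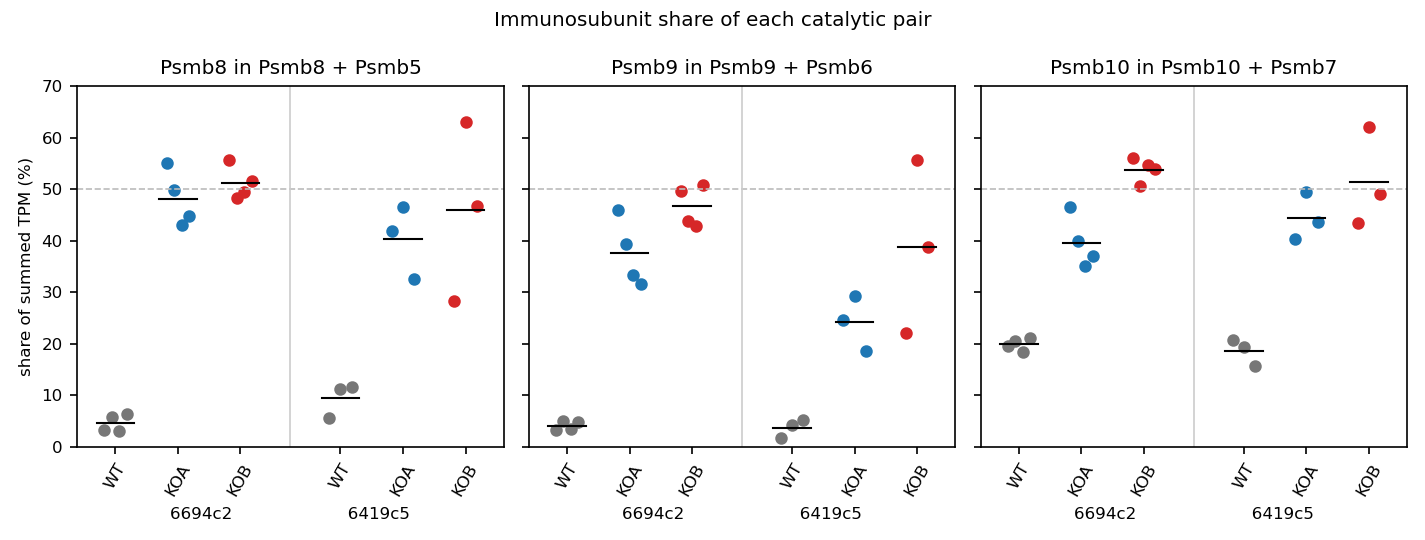
Share of the immunosubunit (percent of the summed TPM of immunosubunit and constitutive counterpart, vertical axis) in each library (points) of WT, KOA and KOB in both clones, with group means (bars) and a dashed line at equal levels. WT libraries lie between 2.97% and 11.53% for Psmb8, and KO libraries between 28.3% and 63.0%.

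The activator genes rose too, in 6694c2 by less than any other member. Psme1 and Psme2 encode the alpha and beta chains of PA28, a ring that opens the proteasome core. Both were already among the highest members in WT. Psme1 was at 196, 212, 208 and 213 TPM in WT of 6694c2, at 279.5, 268, 210.2 and 254 TPM in KOA and at 492, 432, 458 and 380.0 TPM in KOB. For 6419c5 the levels were 173, 163 and 152 TPM in WT, at 340.5, 362 and 336 TPM in KOA and at 264, 398 and 282 TPM in KOB. The only overlap between WT and KO among all members and both clones was here, where KOA library 3 of 6694c2 (210.2 TPM) fell below the highest WT library (213.5 TPM). The KO effect of Psme1 was 0.68 ± 0.10 in 6694c2 and 1.01 ± 0.11 in 6419c5 (adjusted p by limma 2.34e-05 and 1.28e-06).

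Psme2 ran from 157 to 167 TPM in 6694c2 WT, 226 to 283 TPM in its KOA and 365 to 418 TPM in its KOB. In 6419c5 it ran from 176 to 191 TPM in WT, 315 to 349.9 TPM in KOA and 303 to 442 TPM in KOB. Its KO effect was 0.91 ± 0.08 and 0.93 ± 0.09 (adjusted p by limma 1.01e-07 and 3.11e-07), and the ratio of mean TPM was 1.93 in both clones. The chains stayed near equal levels, with a mean Psme1 to Psme2 ratio between 0.869 and 1.27 in the 6 groups. Psme2b, a close copy of Psme2 elsewhere in the genome, is listed at 5.76–32.2 TPM, and reads may have been split between them.

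The transporter genes rose with the catalytic immunosubunits. TAP1 and TAP2 form the pump that carries peptides into the endoplasmic reticulum. Tap1 was at 6.74, 9.62, 8.66 and 11.7 TPM in WT of 6694c2, at 132, 109, 80.1 and 84.9 TPM in KOA and at 157, 121, 131 and 133 TPM in KOB. The other clone had 4.23, 8.58 and 9.60 TPM in WT, at 53.8, 77.2 and 43.8 TPM in KOA and at 65.2, 272 and 148 TPM in KOB. The lowest KO library (80.1 TPM in 6694c2, 43.8 TPM in 6419c5) was far above the highest WT library (11.7 and 9.60 TPM). The KO effect of Tap1 was 3.54 ± 0.28 and 3.47 ± 0.32 (adjusted p by limma 3.03e-08 and 1.7e-07).

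In 6694c2, Tap2 ran from 5.04 to 8.95 TPM in WT, 44.1 to 59.2 TPM in KOA and 71.1 to 87.0 TPM in KOB. It ran from 6.94 to 10.97, 53.7 to 81.2 and 53.4 to 153 TPM in the same lines of the other clone. Its KO effect was 3.03 ± 0.20 and 2.93 ± 0.23 (adjusted p by limma 4.23e-09 and 2.71e-08). For 6694c2 the mean ratio of Tap1 to Tap2 was 1.37 (WT), 2.03 (KOA) and 1.74 (KOB), and for 6419c5 it was 0.786, 0.890 and 1.53. KOB of 6419c5 stood above the other lines of its clone in every library, a difference that was not tested.

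Tapbp (tapasin) holds an empty class I molecule at the transporter until a peptide fits. It was at 93.7, 109, 97.8 and 107.5 TPM in WT of 6694c2, at 304, 243, 252 and 269.5 TPM in KOA and at 377, 358, 367 and 322 TPM in KOB. In the 6419c5 libraries it was at 118, 128 and 137 TPM in WT, at 337, 437 and 417 TPM in KOA and at 371, 675 and 450 TPM in KOB. All KO libraries lay above all WT libraries. The KO effect was 1.59 ± 0.12 and 1.77 ± 0.13 (adjusted p by limma 1.18e-08 and 1.67e-08), or 3.06 and 3.51 times in mean TPM. In the annotation Tapbp shares 3422 bp with Zbtb22 on the same strand, and Zbtb22 changed by 0.38 and 0.44.

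Erap1 trims peptides to length inside the endoplasmic reticulum. In 6694c2 it was at 9.13, 10.7, 10.6 and 11.52 TPM in WT, at 24.0, 15.6, 21.1 and 21.02 TPM in KOA and at 33.0, 30.6, 29.9 and 27.6 TPM in KOB. In 6419c5 it was at 12.0, 14.8 and 13.3 TPM in WT, at 26.5, 24.5 and 23.2 TPM in KOA and at 22.7, 33.2 and 24.7 TPM in KOB. Erap1 was low in all groups, and its lowest KO libraries (15.6 and 22.7 TPM) lay just above its highest WT libraries (11.52 and 14.8 TPM). Its KO effect was 1.17 ± 0.11 and 0.89 ± 0.12 (adjusted p by limma 1.65e-07 and 1.52e-05), with ratios of mean TPM of 2.42 and 1.93.

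Nlrc5, the class I transactivator, had the lowest mean of the members in every group. It was at 0.874, 1.201, 0.965 and 1.78 TPM in WT of 6694c2, at 18.96, 14.4, 16.9 and 16.1 TPM in KOA and at 17.4, 15.8, 17.2 and 14.6 TPM in KOB. In 6419c5 it was at 1.74, 1.76 and 2.81 TPM in WT, at 7.34, 14.47 and 7.30 TPM in KOA and at 11.8, 45.9 and 17.7 TPM in KOB. The KO lines of 6694c2 were at the same level as one another, and those of 6419c5 were more spread. The KO effect was 2.99 ± 0.25 and 2.305 ± 0.29 (adjusted p by limma 5.47e-08 and 4.73e-06). Because Nlrc5 in WT is near the pseudocount of 1, the log2 values understate its change, and the ratios of mean TPM were 13.6 and 8.29. The ratio in 6419c5 includes KOB library 2 (45.9 TPM), far above the other KO libraries of that clone. By line it was 4.62 in KOA and 12.0 in KOB.

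**Figure D2:**
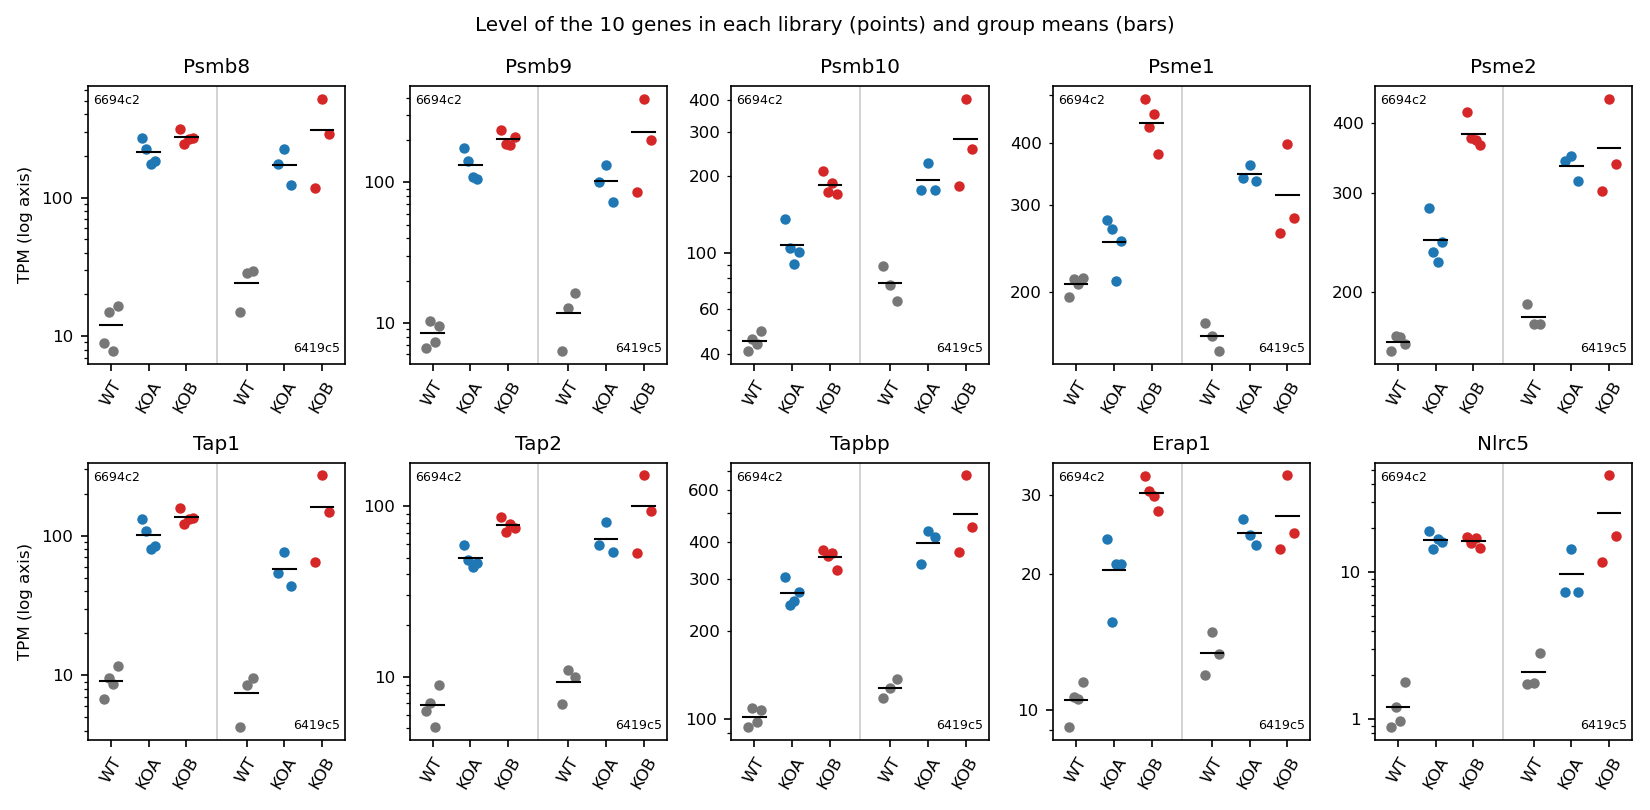
Level of each of the 10 genes (TPM, logarithmic vertical axis with its own range in each panel) in every library (points) of WT, KOA and KOB, clone 6694c2 on the left of each panel and 6419c5 on the right, with group means (bars). KO libraries lie above WT libraries in every panel except for KOA library 3 of 6694c2 in the Psme1 panel, and 1 KOB library of 6419c5 lies at the top of 9 of the 10 panels.

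All 10 members were called higher (adjusted p under 0.05) in the KO effect of 6694c2, where 23.9% of all tested genes were, and all 10 in that of 6419c5, where 26.5% were. The median change of the members was 2.31 and 2.04 in log2(TPM + 1), against 0.07 and 0.08 for all tested genes. In the mean of both clones all 10 were again called, against 32.3% of genes. Every KO library lay above every WT library for 9 members in 6694c2 and for 10 in 6419c5, a separation found for 9.40% and 17.8% of tested genes. When the 2 KO lines of a clone were treated as a random sample of lines, 7 members stayed called in 6694c2 and 9 in 6419c5. Of all 14337 tested genes, 83 and 418 were called higher in that model. The members not called were Psmb10 (adjusted p by limma 0.056), Psme1 (0.329) and Psme2 (0.0538) in 6694c2, and Erap1 (0.0756) in 6419c5.

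Markers of other cells moved with some of these groups. In 6419c5 the leukocyte sum was lower in 5 of 6 KO libraries (63.0–86.5 TPM) than in WT (204–475 TPM), with KOA library 2 at 849 TPM, and 3 of the 8 leukocyte genes fell by limma and 0 rose. In 6694c2 the sums overlapped (55.7–216 TPM in WT, 38.7–193 TPM in KO), with 1 gene lower and 0 higher. With a leukocyte score in the model all 10 members were called in both clones, with KO effects for Psmb8 of 4.27 and 3.42. Of the 14337 tested genes, 3537 and 3796 were called higher in that model. Without the library of highest leukocyte sum in each clone all 10 were called too (Psmb8 4.39 and 3.01). There 2893 and 3471 of 14234 genes were called higher. The score is partly tied to the KO label in 6419c5, where 5 of 6 KO libraries lay below WT. The sum of 8 T and NK cell genes was higher in every KO library of 6694c2 (4.96–12.4 TPM) than in WT (2.85–3.16 TPM). Of these genes 2 could be tested, of which Cd3d rose by 0.56 ± 0.16 (adjusted p by limma 0.00842) and Gzmb did not pass (0.64 ± 0.26, 0.0641). By line, Gzmb rose in KOA (1.19 ± 0.30, adjusted p by limma 0.00826) and had 0.08 ± 0.30 in KOB. In 6419c5 that sum overlapped (3.73–4.22 TPM in WT, 3.14–8.60 TPM in KO). Ifng, which encodes interferon gamma, was listed at 0 in 12 of the 21 libraries and reached at most 0.389 TPM, in KOA library 1 of 6694c2. The sum of 4 B cell genes stayed at or below 1.45 TPM. The sum of 6 fibroblast genes in 6694c2 was 225–349 TPM in WT, 192–814 TPM in KOA and 66.8–118 TPM in KOB, and 5 of the 6 genes fell in KOB against WT by limma while 1 rose in KOA. For 6419c5 that sum was 1144–1951 TPM in WT, 665–838 TPM in KOA and 1644–2426 TPM in KOB. In the KO effect of 6419c5, Dcn (-3.68 ± 0.42) and Col3a1 (-1.33 ± 0.37) fell and 0 of the 6 rose. The sum of 3 endothelial genes stayed at or below 17.8 TPM, and Cdh5 rose in KOA of 6694c2 (1.67 ± 0.38). The part of leukocytes in the members' change was not tested beyond these models. That of T cells, fibroblasts, endothelial cells, epithelial content and other host cells was not tested.

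The KO lines were next set against WT one by one, which uses the same WT libraries for KOA and KOB of a clone. In 6694c2, 9 members were called higher in KOA (15.2% of genes) and 10 in KOB (29.2%). In 6419c5, 10 were called in KOA (19.1%) and 10 in KOB (28.5%). The member not called was Psme1 in KOA of 6694c2, at 0.28 ± 0.11 (adjusted p by limma 0.0797). It passed without KOA library 3 (0.36, adjusted p 0.0283) and also without KOB library 2 of 6419c5 (0.28, adjusted p 0.0265). The largest line effects were Psmb8 in KOB of 6694c2 (4.46 ± 0.35) and, in 6419c5, Tap1 in KOB (4.10 ± 0.37).

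**Figure D3:**
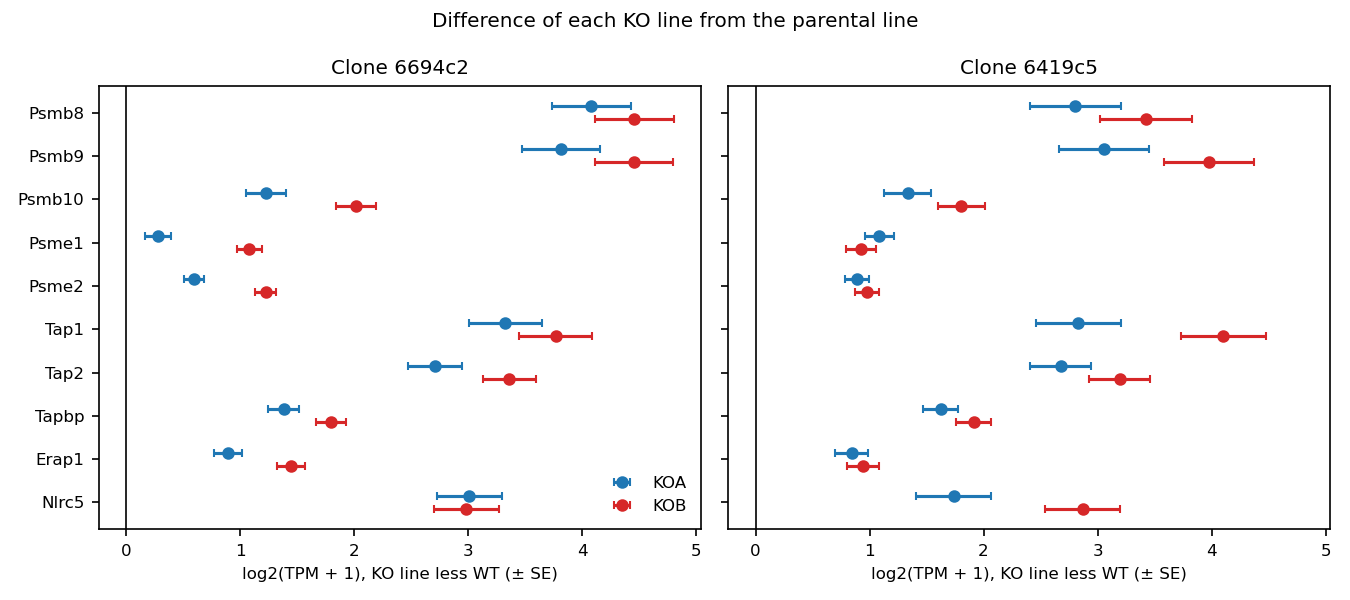
Difference of each KO line from WT of its clone in log2(TPM + 1) (horizontal axis, points with bars of 1 standard error from limma) for the 10 genes, KOA in blue and KOB in red. All points lie right of 0, between 0.28 and 4.46, and KOB lies right of KOA for every gene except Nlrc5 in 6694c2 and Psme1 in 6419c5.

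KOB exceeded KOA in 6694c2 for 6 members, with 23.6% of all genes called higher in that comparison. These were Psme1 (0.80 ± 0.11), Psmb10 (0.79 ± 0.18), Tap2 (0.65 ± 0.23), Psme2 (0.63 ± 0.09), Erap1 (0.56 ± 0.12) and Tapbp (0.41 ± 0.13), with adjusted p-values by limma between 1.18e-05 and 0.0285. Except for Tap2, the called members are those of smaller KO effect. The called members also had smaller SE than the others. Nlrc5 had a difference of -0.03 ± 0.29, Psmb8 of 0.38 ± 0.35, Tap1 of 0.44 ± 0.32 and Psmb9 of 0.64 ± 0.34, none of which passed. Of these, Psmb9 alone had every KOB library above every KOA library. Fibroblast markers differed between these lines, with a summed level of 192–814 TPM in KOA and 66.8–118 TPM in KOB and 4 of 6 genes lower in KOB, Col1a1 by the most (-2.61 ± 0.31). Both tested endothelial genes were lower as well, Cdh5 by -2.29 ± 0.38, as was Gzmb (-1.11 ± 0.30). The part of these cells in the members' differences was not tested. The Tap2 call was lost when any of KOA libraries 3 and 4 or KOB libraries 1 and 3 was left out (adjusted p from 0.0555 to 0.0719).

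In 6419c5 KOB exceeded KOA for 2 members, Tap1 (1.27 ± 0.37, adjusted p by limma 0.025) and Nlrc5 (1.13 ± 0.33, 0.0245), with 12.7% of genes called higher. Here 3 of 6 fibroblast genes were higher in KOB (summed level 1644–2426 TPM against 665–838 TPM in KOA), and their part was not tested. Both member calls rested on single libraries. Without KOB library 2 neither passed (Tap1 0.78, adjusted p 0.153, and Nlrc5 0.60, adjusted p 0.135), and none was called without KOA library 1 or without KOA library 3. Without KOB library 3 there was 1 call, and without KOB library 1, the lowest of its group, there were 7.

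**Figure D4:**
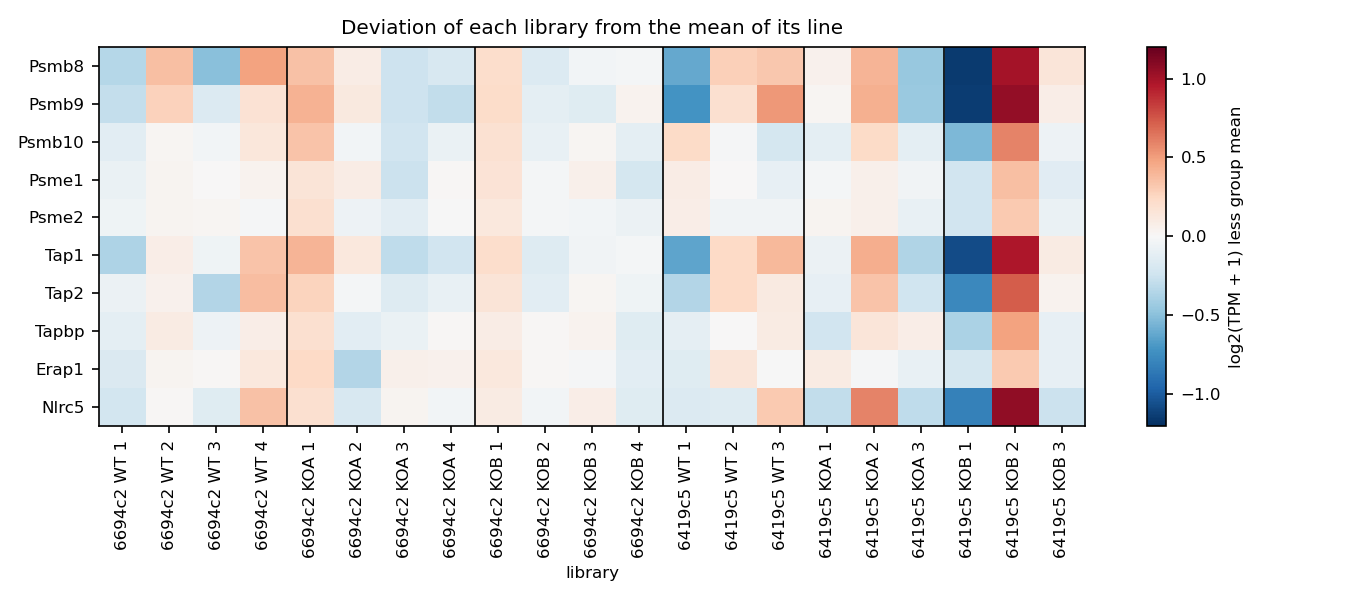
Deviation of every library (columns, grouped by line) from the mean of its own line for the 10 genes (rows), in log2(TPM + 1), with red above and blue below the mean. KOB libraries 1 and 2 of 6419c5 are blue and red in every row, with mean deviations of -0.65 and 0.69.

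Libraries of a line differed for all members at once. KOB library 2 of 6419c5 was the highest of its group for 10 of 10 members and the highest of all 21 libraries for 9, the exception being Psme1, with a mean deviation of 0.69 in log2(TPM + 1). KOB library 1 of the same line was the lowest of its group for 10 of 10, at -0.65. In 6694c2, KOA library 1 and KOB library 1 were each the highest of their groups for 10 of 10 members, at 0.28 and 0.16. The leukocyte sums of KOB libraries 1, 2 and 3 of 6419c5 were 63.0, 86.5 and 73.1 TPM, so library 2 was highest and library 1 lowest there too. In 6694c2, KOA library 1 was at 71.2 TPM, the lowest of its line. KOB library 1 of that clone was at 39.1 TPM, near the lowest of its line (38.7 TPM in library 4). KOA library 2 of 6419c5, the highest of its group for 9 of 10 members, held the highest leukocyte sum of all libraries, 849 TPM. Among the T and NK cell genes, Cd3e (0.578 TPM), Cd3g (0.773 TPM) and Cd8a (0.786 TPM) were highest of all libraries in KOB library 2 of 6419c5. The other genes of that list were highest in other libraries. Whether blood cell RNA bears on the member levels of any of these libraries was not tested.

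Deviations of the neighbours on chromosome 17, which are also the members of largest mean KO effect, were more alike among themselves than with those of Psmb10, Psme1 and Psme2. Across the 21 libraries, which share library and depth between genes, Pearson's r of deviations from the group means had a median of 0.96 over the 6 pairs of Psmb8, Psmb9, Tap1 and Tap2, and 0.89 over the 3 pairs of Psmb10, Psme1 and Psme2. Between these groups of genes the median over 12 pairs was 0.68. Without KOB library 2 of 6419c5 the medians were 0.94, 0.78 and 0.41. With the other 9 members, Erap1 had a median r of 0.62 (0.42 without that library) and Nlrc5 of 0.82 (0.69). Nlrc5, on chromosome 8, had r between 0.82 (Psmb8) and 0.87 (Tap2) with the neighbours on chromosome 17. These correlations describe the libraries and carry no test.

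The clones were compared by the difference of their KO effects, and no member passed. Over all genes 13.0% were called higher and 15.6% lower in that difference. Psmb8 came nearest, with an effect larger by 1.15 ± 0.46 in 6694c2 (adjusted p by limma 0.0673). It passed without WT library 1 of 6419c5 (1.46, adjusted p 0.0335), without KOB library 2 of 6419c5 (1.40, 0.0131) and without the library of highest leukocyte sum in each clone (1.37, 0.0486). Nlrc5 had a difference of 0.69 ± 0.38 (0.187), which passed without KOB library 2 of 6419c5 (0.96, 0.0111). The other 8 members had differences between -0.33 and 0.61, with adjusted p-values from 0.105 to 0.914, which does not show that the clones respond alike.

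In the parental lines the members already differed in level. In WT of 6694c2 the order of mean TPM was Psme1 (207), Psme2 (163), Tapbp (102), Psmb10 (45.1), Psmb8 (12.0), Erap1 (10.5), Tap1 (9.17), Psmb9 (8.44), Tap2 (6.82) and Nlrc5 (1.205). The libraries of neighbours overlapped from Psmb8 down to Tap2 and not elsewhere. In WT of 6419c5 the order began with Psme2 (181), Psme1 (163), Tapbp (128) and Psmb10 (76.1). WT of 6694c2 was higher than WT of 6419c5 for Psme1 (0.35 ± 0.12, adjusted p by limma 0.0201) and lower for Psmb10 (-0.73 ± 0.19, 0.0036), Psmb8 (-0.96 ± 0.37, 0.0376) and Erap1 (-0.32 ± 0.13, 0.0478), with 21.5% of genes called higher and 32.0% lower. The leukocyte sum was also higher in every WT library of 6419c5 but 1 than in any of 6694c2 (204–475 against 55.7–216 TPM), and with a leukocyte score in the model 1 of these 4 calls was left. The fibroblast sum was higher too (1144–1951 against 225–349 TPM), and its part was not tested. None of the 4 calls held with the line as a random effect or with the replicate block (Psmb10 adjusted p by limma 0.362 and 0.0602). Without WT library 3 of 6419c5, Psme1, Psmb8 and Erap1 no longer passed (adjusted p by limma 0.0787, 0.134 and 0.0927). The Psmb8 call also ended without WT library 1 or 3 of 6694c2 or WT library 2 of 6419c5 (0.092 to 0.13), and that of Erap1, already near the threshold, without most single libraries.

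In the KO lines the order changed. Psmb8 was the 5th highest member by mean TPM in both WT lines, and Psmb9 the 8th in 6694c2 and the 7th in 6419c5. In KOA and KOB of 6694c2 they were 4th and 5th (213 and 132 TPM in KOA, 275 and 204 TPM in KOB). Psmb8 and Psmb9 both stood above Psmb10 there in the mean, Psmb9 with overlapping libraries, whereas both stood below it in WT. In 6419c5 Psmb8 was below Psmb10 in KOA (174 and 193 TPM) and above it in KOB (309 and 281 TPM), in both cases with overlapping libraries. The order in KOB depends on the library. Psmb8 and Psmb10 were at 117 and 183 TPM in library 1, 521 and 404 TPM in library 2 and 288 and 256 TPM in library 3. KOB library 2, which stood apart, weighs most in these means. Tapbp, Psme1 and Psme2 held the first 3 places in each KO line, and Erap1 and Nlrc5 the last 2.

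The rest of the proteasome was measured in the same libraries. The counts that follow stand against 23.9% of all tested genes called higher and 13.5% called lower in 6694c2, and 26.5% and 15.0% in 6419c5. Of the 11 other subunits of the 20S core, 1 rose and 2 fell in 6694c2 and 4 rose and 1 fell in 6419c5 by the same limma test, with a range of -0.19 to 0.16 and of -0.21 to 0.58. Of the 21 subunits of the 19S cap, 3 rose and 6 fell in 6694c2 and 8 rose and 7 fell in 6419c5. The largest were Psmd3 (0.87 ± 0.07) and Psmd5 (-0.67 ± 0.07), both in 6419c5. Of the 5 assembly factors, 2 rose in 6694c2 and 3 rose and 1 fell in 6419c5, with Psmg4 higher in both (0.51 ± 0.07 and 0.34 ± 0.08). Psme3, the gamma form of the activator, rose by 0.33 ± 0.07 and 0.62 ± 0.09, while Psme4 and Psmf1 did not pass in either clone. The median changes of these lists lay between -0.07 and 0.22, against 0.07 and 0.08 for all tested genes and 2.31 and 2.04 for the members. Psmb11 and Psma8, the core subunits of thymus and testis, stayed under 1 TPM in every library and were not tested.

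Of the 4 loading partners, Tapbpl, which edits peptides like tapasin, rose by 1.51 ± 0.14 in 6694c2 and 1.02 ± 0.16 in 6419c5. The general chaperones did not follow. Calr changed by -0.12 and 0.09 and Canx by 0.21 and 0.01, none called, and Pdia3 had -0.07 ± 0.06 in 6694c2 and fell by 0.34 on the log2 scale in 6419c5 (adjusted p by limma 0.0013). Among 6 other peptidases of the pathway, Lap3 (0.48 and 0.40) and Thop1 (0.42 and 0.48) rose in both clones. In 6419c5 Npepps rose (0.28) and Tpp2 fell (-0.53), and neither was called in 6694c2. The class I genes H2-K1 (2.84 and 3.07), H2-D1 (2.21 and 2.53) and B2m (2.04 and 1.54) rose in both clones.

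Of 6 partners of Nlrc5 at class I promoters, Rfx5 rose in both clones (0.73 ± 0.11 and 0.67 ± 0.13). Nfyb rose in 6694c2 (0.21), Rfxap rose in 6419c5 (0.49), and Nfya (-0.52) and Rfxank (-0.21) fell in 6419c5. Of 8 regulators of the pathway, 6 rose in 6694c2 (all genes 23.9%) and 7 in 6419c5 (26.5%), and 0 fell. They include Irf1 (1.55 and 1.40) and Ciita, the class II counterpart of Nlrc5 (2.81 and 2.07). The interferon gamma receptor genes Ifngr1 and Ifngr2 both rose (0.35 each in 6694c2, then 0.49 and 0.71 in 6419c5). Jak1 did not pass in either clone (0.0033 and -0.04), and Jak2 rose in 6419c5 (0.76 ± 0.15), with -0.17 ± 0.13 in 6694c2.

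**Figure D5:**
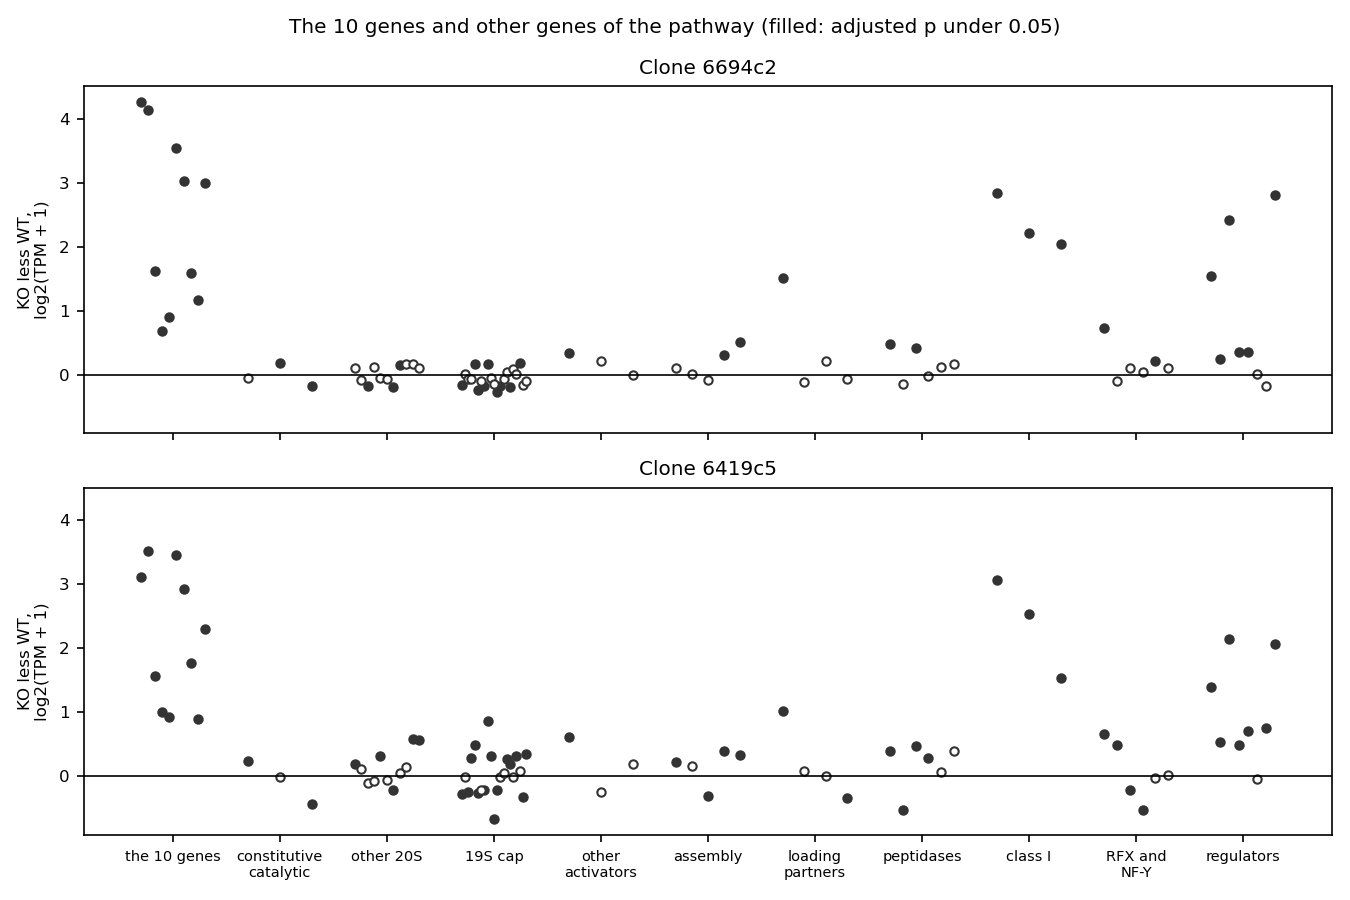
KO effect in log2(TPM + 1) (vertical axis) of the 10 genes and of each tested gene in the other lists of the pathway, for 6694c2 (top) and 6419c5 (bottom), with filled points for an adjusted p under 0.05 by limma. The 10 genes lie between 0.68 and 4.27 in 6694c2 and between 0.89 and 3.52 in 6419c5, and the 19S cap lies between -0.26 and 0.18 and between -0.67 and 0.87.

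The genes whose levels over the 21 libraries were most like those of Nlrc5 were ranked among 11415 tested genes that reached a group mean of 5 TPM. Among the first 8 were B2m (r = 0.985), Igtp (0.975), Gm12250 (0.973), H2-T22 (0.972), H2-K1 (0.969), Iigp1 (0.969) and H2-D1 (0.967). Of those named, 4 are class I genes or B2m and 3 are interferon-inducible GTPase genes. Those most like the mean of the other 9 members were Irgm2 (0.988), Tgtp1 (0.987), Gbp5 (0.987), Gbp4 (0.986), Oasl2 (0.981), Gbp9 (0.979), Dtx3l (0.979) and Ciita (0.978). All libraries of a line share its mean, so these r values mostly follow the contrast of KO and WT. For deviations from the group means alone they were between 0.80 and 0.90 for the first set and between 0.79 and 0.95 for the second.

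Some members overlap other genes. Psmb9 and Tap1 share 212 bp on opposite strands in the GENCODE M21 models, Erap1 shares 834 bp with Cast and Nlrc5 748 bp with 9330175E14Rik. It is not stated in the sources used here whether the libraries keep strand, so reads of these stretches cannot be assigned with certainty. Cast changed by -0.41 ± 0.07 and 0.04 ± 0.08, against the increase of Erap1. 9330175E14Rik reached at most 2.26 TPM.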

How the data were processed

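RNA of 21 libraries of sorted tumour cells was sequenced. The deposited values are TPM per gene, made by the authors with Salmon on mm10, per the submitters' processing notes. The Salmon version, the annotation and strand use are not given in the sources used here. TPM hold no read depth, so no counting interval is given. Each library has 12437–13316 genes at 1 TPM or more. KO lines carry letters in the table and numbers in the labels, which were not tied to each other.

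Values were taken as log2(TPM + 1). Genes reaching 1 TPM in 3 or more libraries were fitted with limma 3.58.1 (R 4.3.3), with 6 group means, 15 residual degrees of freedom and a mean-variance trend. Benjamini-Hochberg adjustment covered all 14337 tested genes, with calls at adjusted values under 0.05. The fit was tested on simulated data. Ratios were tested by exact permutation (scipy 1.17.1).

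All 10 members are named, with the counterparts, partners and regulators listed by rule. Psme4, Psmf1 and the single genes of other lists beyond the 3 of smallest p in the mean KO effect were named after their values were seen. Some genes of these lists are not reported here. Members, lists and marker genes were chosen with earlier results of these data known. Alternatives covered the pseudocount, filter, scaling, left-out libraries, a leukocyte score, the line as a random effect and a replicate block.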

Additional observations from a re-analysis of the deposited data

Results flagged for a closer look

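KOB library 2 of 6419c5 stood apart from the other KO libraries of its clone for 5 members, by Dixon's criterion at 95% (the gap to the nearest library as a share of the range of 6 libraries). Nlrc5 was at 45.92 TPM there, against 17.7 TPM in the next library. Tapbp was at 675.2 TPM (next 450.1), Psme2 at 442.1 TPM (next 349.9), Psmb10 at 404.0 TPM (next 256) and Erap1 at 33.16 TPM (next 26.5). The criterion was applied to 50 groups, and chance marks about 1 group in 20. The 5 genes share this library.

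The KO lines of a clone differed from each other for some members by limma, in log2(TPM + 1). In 6694c2, KOB less KOA was 0.7997 for Psme1, 0.7881 for Psmb10, 0.6526 for Tap2, 0.6305 for Psme2, 0.5586 for Erap1 and 0.414 for Tapbp. In 6419c5 it was 1.272 for Tap1 and 1.131 for Nlrc5. For 6694c2 the fibroblast sums were 192–814 TPM (KOA) and 66.8–118 TPM (KOB), for 6419c5 they were 665–838 TPM (KOA) and 1644–2426 TPM (KOB), and their part was not tested. The leukocyte sums of the lines were 71.2–193 TPM in KOA and 38.7–78.1 TPM in KOB of 6694c2, and their part in these differences was not tested beyond the model with a leukocyte score, which left 6 and 2 members called.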

How the results depend on the processing

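In single-gene values, 3628 of 3730 alternatives kept direction and side of the threshold, as did 450 of 477 counts and ratios. The subunit ratios kept every direction. KO effects were called for 7 to 10 members in 6694c2 and 9 to 10 in 6419c5, the lower counts with the line as a random effect. With that effect, 83 and 418 of all 14337 tested genes were called higher. Depth is unknown from TPM.

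For the difference between clones (0 called higher), 1 member was called without the library of highest leukocyte sum in each clone, an alternative chosen after seeing the data, and 0 to 2 when single libraries were left out. KOB against KOA in 6419c5 gave 0 to 7 calls when single libraries were left out. The entry Mir6236 took 22665 to 145023 of the 1000000 TPM of a library, which lowers the TPM of all other genes there. It was highest in KOB library 4 of 6694c2 (145023 TPM) and WT library 3 of 6419c5 (91141.5 TPM). For WT against WT, the 1 call higher became 0 without the 2 libraries of highest Mir6236, with KO lines pooled, with the line as a random effect, with the leukocyte score and with the replicate block, and was 0 to 1 over single libraries. The 3 calls lower became 1 with no filter, with median-of-ratios factors, with quantile normalization, without the 2 Mir6236 libraries, with KO lines pooled and with the leukocyte score, became 0 with the line as a random effect and the replicate block, and were 1 to 4 over single libraries. The cause was not tested.

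Directions turned only for small values. For the difference between clones, Psme2 was 0.1053 by quantile normalization, 0.02053 rescaled without Mir6236, 0.004578 without the 2 Mir6236 libraries and 0.0002101 without the highest leukocyte libraries. Tap1 was -0.002126 by quantile normalization, -0.1139 without the Mir6236 libraries and -0.1776 with the leukocyte score, which gave -0.0964 for Tap2. Over single libraries the ranges were -0.08598 to 0.1992 for Psmb10, -0.08457 to 0.05136 for Psme2, -0.1912 to 0.3928 for Tap1 and -0.09519 to 0.2797 for Tap2. KOB less KOA for Nlrc5 in 6694c2 was 0.02317 without the Mir6236 libraries and 0.1901 with the leukocyte score, and ranged from -0.08857 to 0.03761. In 6419c5 it ranged from -0.06919 to 0.2027 for Psme2 and from -0.05678 to 0.2059 for Erap1. WT less WT was 0.0236 for Psmb9 with the leukocyte score, and ranged from -0.008827 to 0.5013 for Tap1. The cause was not tested.

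Other scalings moved the split of all called genes: 64.0% were higher in 6694c2 and 63.9% in 6419c5, against 47.3% and 50.4% with median-of-ratios factors and 47.4% and 49.5% by quantile normalization. All members stayed higher in both.

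With the replicate block, 1 member (Psmb8, adjusted p 0.0389 by limma) was called in the difference between clones. Same-numbered libraries did not deviate together in every pair (r from -0.119 to 0.161 in 6694c2 and from -0.147 to 0.173 in 6419c5). With so few libraries these values cannot show whether the numbers mark a pairing. The numbers are used here only to name libraries. Over all genes the block gave 3145 higher and 1770 lower calls in 6694c2, and 3560 and 2025 in 6419c5.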
